A study of Mus musculus with 6 samples.

Results

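Heat shock proteins and ER chaperones were examined in primary mouse hepatocytes depleted of RetSat, an oxidoreductase of the endoplasmic reticulum (ER). Of 19938 genes with values, 87 were members. They were chosen by name, as the genes whose symbol begins with Hspa, Hspb, Hspd, Hspe, Hsph, Hsp90, Dnaja, Dnajb, Dnajc or Pdia, together with Calr, Canx, Herpud1, Sdf2l1, Creld2, Hyou1, Sel1l, Edem1, Syvn1 and Xbp1. By the compartment in which their products are known to work, 29 were assigned to the ER, 36 to the cytosol and 8 to mitochondria, and 14 to other places or to none that is certain. Xbp1, a transcription factor of the ER stress response, was counted with the ER although it acts in the nucleus. The siRetSat group held 3 arrays of hepatocytes transfected with siRNA against RetSat, and the siControl group 3 arrays of hepatocytes transfected with control siRNA. All cells were wild type and, by the series' design text, came from 1 male C57BL/6J mouse aged 10 weeks. Each well received 1 nmol of siRNA overnight in cells that had attached in medium with 25 mM glucose, and RNA was harvested 48 h after the medium change of the next morning. Both groups therefore shared the mouse, the lipid transfection and the culture, and the p-values cover the spread between transfections, not between mice. The study's methods give another age range and another siRNA supplier than the sample labels.

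Retsat was at log2 values of 4.62, 4.83 and 4.81 in siRetSat hepatocytes, against 6.80, 7.04 and 7.01 in siControl hepatocytes. The groups lay far apart, so that 21.8% of the control signal was left (log2 fold change -2.20, standard error 0.105, adjusted p = 0.000112 from limma). With 1 siRNA against RetSat, effects of RetSat loss and other effects of the duplex cannot be told apart. All 8 hepatocyte markers examined were above the dim range (a mean log2 value under 4.33, the 40th percentile of all genes). Tat fell at -0.72 and the other 7 did not pass. Of 8 macrophage markers 5 were dim and Cd14 rose at 0.59. Cd68 was at 0.40 (adjusted p = 0.0563 from limma), and the other 6 lay between -0.06 and 0.24. Of 4 bile duct markers Sox9 rose at 0.45, whereas Epcam at 0.36, Krt19 at -0.20 and Krt7 at -0.21 did not pass. The mean log2 level of the macrophage markers, which Cd14 and Cd68 moved most, lay between 5.20 and 5.35 in siRetSat arrays, against 5.08 to 5.11 in siControl arrays, and their part in the results was not tested. In bulk RNA, fewer cells of a type and less RNA per cell cannot be told apart. The arrays numbered 1 stood apart from the others in both groups, along a component with 61.5% of the variance within groups, and the calls among the members are also given without them.

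Molecular chaperones help other proteins to fold. In the cytosol, Hsp70 proteins such as Hspa8 bind unfolded stretches, J-domain proteins of the Dnaj families deliver clients and trigger ATP hydrolysis, and Hsp90 proteins act later on partly folded clients. The ER has its own Hsp70, Hspa5 (BiP), and its own Hsp90, Hsp90b1 (Grp94). It adds the lectins Canx and Calr, which hold glycoproteins, and protein disulfide isomerases of the Pdia family, which form and shuffle disulfide bonds. Hepatocytes secrete much of the plasma protein and rely on this machinery. When unfolded proteins build up in the ER, the sensors Ern1 (IRE1), Eif2ak3 (PERK) and Atf6 start the unfolded protein response, which raises ER chaperones, whereas the heat shock factor Hsf1 does the same for cytosolic ones.

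Across the 87 members, Pdia3, Dnajb12 and Dnajc13 fell and Dnajc9 rose in RetSat-depleted hepatocytes, whereas BiP, Hspa8 and Hsp90aa1 did not pass the test. Lower members were 3.45% of the 87, against a background of 1.66% of all genes called lower, and 1 member was called higher, against 1.91% of all genes (adjusted p under 0.05 from limma, over all 19938 genes). Both shares rest on very few genes. With the looser cutoffs of the study's methods (limma's p without adjustment under 0.05 and a log2 difference of at least 0.32), 3 members or 3.45% were higher (background 4.47%) and 7 or 8.05% were lower (background 4.58%). The values of both groups did not overlap for 6 members or 6.9% that were higher (background 9.33%) and for 17 or 19.5% that were lower (background 10.1%). Of the members 13 were dim, against 40% of all genes by the definition of dim, and the shares were higher among all genes that were not dim. There 2.73% were called lower, 7.37% were lower at the looser cutoffs and 15.6% were lower without overlap, which lies closer to the shares among the members. Without both arrays numbered 1, 4 members were called, namely Pdia3, Dnajb12, Dnajc13 and Herpud1. No member was called without siControl 2, and only Dnajb12 was called without siControl 3 or without siRetSat 2.

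The ER class had a slightly lower median than the cytosolic class. The median log2 fold change was -0.06 over the 29 ER members and 0.02 over the 36 cytosolic members, beside 0.00 over all genes. Among ER members 20 had a fold change below 0, 2 or 6.9% were called lower (Pdia3 and Dnajb12) and none higher. Of all genes 1.66% were called lower, and 2.73% of those not dim. At an unadjusted p under 0.05 were 8 or 27.6% of ER members (14.5% of all genes, 21.9% of those not dim). Without overlap 8 or 27.6% were lower (10.1% of all genes, 15.6% of those not dim) and 2 or 6.9% higher (9.33% of all genes). These shares rest on few genes, and both shares of 27.6% include the transcription factor Xbp1. Among cytosolic members 15 had a fold change below 0 and none was called by limma. At an unadjusted p under 0.05 were 5 or 13.9%, and 1 was called by the methods' t-test after adjustment (Dnajc12). Changes of less than 0.2 in either direction made up 62.1% of the ER class and 83.3% of the cytosolic class, against 76.8% of all genes. By array, the ER minus cytosolic median was -0.165, -0.067 and -0.025 in the 3 siRetSat arrays, against -0.048, 0.030 and 0.017 in the 3 siControl arrays, each relative to the siControl mean of every gene. The groups overlapped, since siControl 1 was lower than siRetSat 3. The difference of medians was -0.08, and it was -0.15 without siControl 1 and -0.05 without siRetSat 1 or without siControl 3. The ER median itself was -0.12 without siControl 1 and -0.04 without siControl 3. One cytosolic gene, Hspa1b, was measured only on a probe set it shares with Hspa1a, which had a fold change of 0.02.

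**Figure D1:**
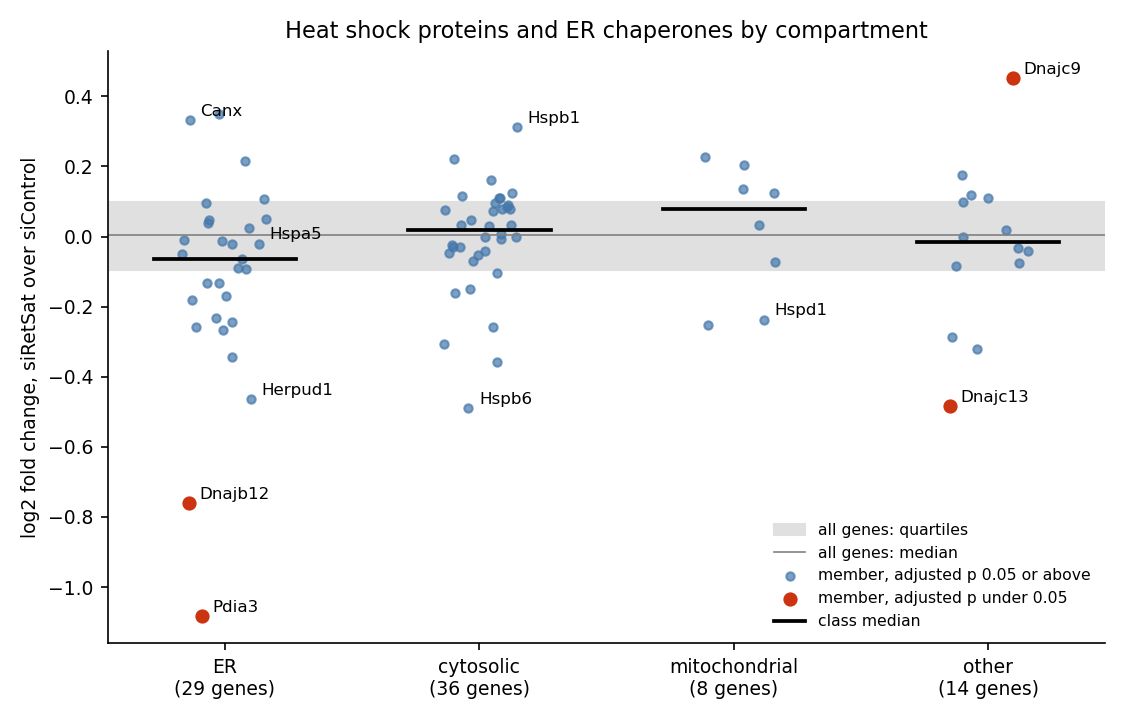
Each point is a member, with the log2 fold change (siRetSat over siControl, 3 arrays each) on the y axis and its compartment on the x axis. Black bars are class medians, the grey band spans the quartiles of all 19938 genes, and red points passed an adjusted p of 0.05, with Pdia3 lowest at -1.08 and Dnajc9 highest at 0.45.

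Among the proteins that fold glycoproteins in the ER, Pdia3 fell, whereas its lectin partners Canx and Calr did not pass the test. Pdia3 (ERp57) is the disulfide isomerase that binds to Canx and Calr and forms disulfide bonds in the glycoproteins they hold. Its log2 values were 10.18, 10.40 and 10.43 in siRetSat hepatocytes, against 11.03, 11.63 and 11.60 in siControl hepatocytes. All siRetSat values were below all siControl values, and siControl 1 lay nearest to them. Pdia3 thus fell to 47.2% of the control signal (log2 fold change -1.08, standard error 0.167, adjusted p = 0.0134 from limma). The call was lost without siControl 2 (-0.98, adjusted p = 0.0764 from limma), without siControl 3 (-0.99, adjusted p = 0.0540 from limma) and without siRetSat 2 (adjusted p = 0.0637 from limma). Canx, the membrane-bound lectin, was at 11.38, 11.21 and 11.27 in siRetSat hepatocytes, against 11.01, 10.98 and 10.87 in siControl hepatocytes. Its groups did not overlap, but the change of 0.33 did not pass (standard error 0.0904, adjusted p = 0.104 from limma). Canx passed with a variance trend, with array weights and with the replicate number as a block. The soluble lectin Calr stood at 10.27, 10.32 and 10.38 in siRetSat hepatocytes, against 10.40, 10.33 and 10.39 in siControl hepatocytes, with overlap. Its fold change of -0.05 had a 95% interval from -0.24 to 0.14.

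The other disulfide isomerases with a Pdia symbol did not follow Pdia3. Pdia4 had a fold change of 0.22 (95% interval -0.02 to 0.46), Pdia5 of -0.13 without overlap (-0.34 to 0.07) and Pdia6 of -0.01 (-0.20 to 0.17). Pdia2, an isomerase best known from pancreas, was dim and had a fold change of 0.05. The intervals of these 4 genes lie wholly above that of Pdia3, which runs from -1.47 to -0.70. Relatives with other names varied. P4hb was at -0.10 and Erp29 at -0.32, both without overlap and neither called, Txndc5 was at -0.07 and Tmx1 at 1.01.

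Dnajb12 was the other ER member that fell. It is a J-domain protein of the ER membrane that recruits cytosolic Hsp70 to misfolded membrane proteins. Its log2 values were 6.19, 6.49 and 6.28 in siRetSat hepatocytes, against 7.03, 7.12 and 7.09 in siControl hepatocytes. The siControl values lay within 0.09 of each other and well above every siRetSat value. This left 59.0% of the control signal (log2 fold change -0.76, standard error 0.101, adjusted p = 0.00683 from limma), and the call was lost without siControl 2 (-0.74, adjusted p = 0.0536 from limma). Its relative Dnajb14, which acts in the same way, was at 6.39, 6.44 and 6.47 in siRetSat hepatocytes, against 6.08, 6.69 and 6.93 in siControl hepatocytes. Here siControl 1 was lower than every siRetSat array, and the fold change of -0.13 did not pass.

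Herpud1, Xbp1, Sel1l, Syvn1 and Edem1 belong to the unfolded protein response and to ER-associated degradation, which returns misfolded proteins to the cytosol for destruction. Their fold changes ran from -0.46 for Herpud1 to -0.01 for Edem1, and none passed the test. Herpud1, a membrane protein that helps to assemble the degradation complex, was at 9.27, 9.02 and 9.08 in siRetSat hepatocytes, against 9.67, 9.63 and 9.46 in siControl hepatocytes. Its groups did not overlap, and its change of -0.46 lay just short of the threshold (standard error 0.104, adjusted p = 0.0544 from limma). Xbp1 encodes the transcription factor that Ern1 activates by splicing of its mRNA. It was at 9.43, 9.45 and 9.41 in siRetSat hepatocytes, against 9.78, 9.77 and 9.77 in siControl hepatocytes. Both groups were tight and apart, and the fold change was -0.34 (standard error 0.0783, adjusted p = 0.0566 from limma). This probe set reports total Xbp1 RNA, and splicing was not analysed here. Both genes passed with a variance trend (adjusted p = 0.00754 for Xbp1 and 0.0124 for Herpud1 from limma) and with dim genes left out, and Xbp1 also by the methods' t-test. Sel1l and Syvn1 form the core of the ubiquitin ligase that degrades ER proteins. Sel1l differed by -0.27 without overlap (adjusted p = 0.186 from limma), and Syvn1 by -0.06. Edem1, a lectin that marks glycoproteins for degradation, had a fold change of -0.01 (95% interval -0.21 to 0.19).

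BiP itself was close to control, and none of its partners among the members passed. Hspa5 was at 11.54, 11.50 and 11.55 in siRetSat hepatocytes, against 11.51, 11.58 and 11.56 in siControl hepatocytes. The groups overlapped, and the fold change of -0.02 had a 95% interval from -0.20 to 0.16. Dnajb9 (ERdj4), a J-domain partner of BiP that represses Ern1, was at 8.07, 8.34 and 8.48 in siRetSat hepatocytes, against 8.15, 8.74 and 8.73 in siControl hepatocytes. The array numbered 1 was the lowest of its group on both sides, and the fold change was -0.24 (95% interval -0.65 to 0.17), or -0.33 without both arrays numbered 1 (adjusted p = 0.122 from limma). Among other J-domain partners, Dnajc10 (ERdj5), a disulfide reductase, had a fold change of -0.26 without overlap (adjusted p = 0.238 from limma). Dnajc3 (p58IPK) had one of -0.09 and Dnajb11 (ERdj3) one of 0.05. The 2 probe sets of Dnajc3 held the same values on all 6 arrays and count as 1 measurement. Hyou1, a nucleotide exchange factor of BiP, was at -0.09, and Hsp90b1 at -0.17 (95% interval -0.42 to 0.08).

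Sdf2l1, which binds the J-domain protein Dnajb11 and keeps clients soluble, was the ER member with the highest fold change. It was at 6.79, 6.68 and 6.81 in siRetSat hepatocytes, against 6.43, 6.23 and 6.57 in siControl hepatocytes. The groups did not overlap, but the difference of 0.35 did not pass (standard error 0.108, adjusted p = 0.154 from limma). Sdf2l1 passed with array weights and with the replicate number as a block. Creld2, a secreted ER protein induced by stress, had a fold change of 0.11 and Hspa13, an Hsp70 of microsomes, one of 0.10.

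**Figure D2:**
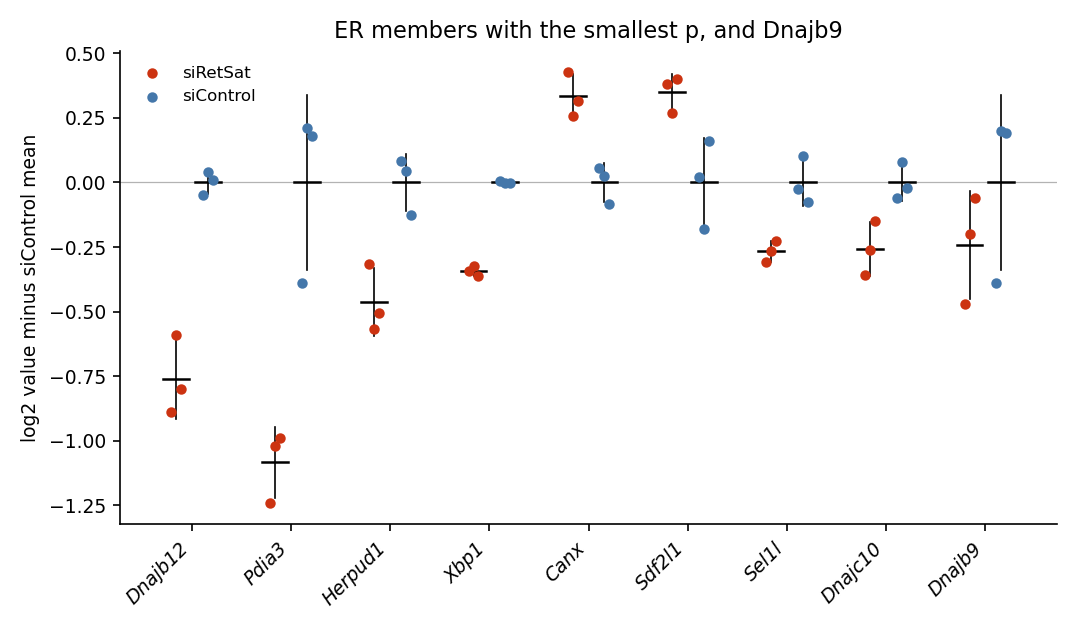
Dots are single arrays, and the y axis gives log2 values relative to the siControl mean of that gene, for the 8 ER members with the smallest p and Dnajb9. Bars mark the mean of each group, with lines of 1 SD up and down (n = 3), and Pdia3 and Dnajb12 have the lowest siRetSat means, at -1.08 and -0.76.

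Many ER chaperone promoters carry the ER stress response element (ERSE), which Atf6 binds together with NF-Y. It was searched as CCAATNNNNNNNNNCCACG on both strands of RefSeq promoters (build GRCm38.p6), from 250 bases before to 50 bases after the start site, which were found for 73 of the 87 members. Of 26 ER members with a promoter 8 held a match, of 31 cytosolic members none, and of all 32851 promoter windows 0.119%. Members were counted by gene and the background by window. The names by which members were chosen include known targets of the unfolded protein response. A larger share among ER members was therefore built into the choice and is not a result of these data. The matches are shown because known targets of the response carry them. Each is written along the strand that reads CCAAT first, with its fixed letters in capitals.
Hspa5, chr2:34772025-34772043, plus strand: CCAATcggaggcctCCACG
Hsp90b1, chr10:86705533-86705551, plus strand: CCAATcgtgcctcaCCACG
Hsp90b1, chr10:86705638-86705656, minus strand: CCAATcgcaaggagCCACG
Calr, chr8:84847075-84847093, plus strand: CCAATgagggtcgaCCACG
Canx, chr11:50325800-50325818, minus strand: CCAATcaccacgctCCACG
Pdia6, chr12:17266491-17266509, plus strand: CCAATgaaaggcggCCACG
Dnajc3, chr14:118937827-118937845, plus strand: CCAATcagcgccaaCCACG
Creld2, chr15:88819520-88819538, minus strand: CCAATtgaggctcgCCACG
Syvn1, chr19:6046532-6046550, plus strand: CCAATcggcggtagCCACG
All 8 genes had fold changes between -0.17 (Hsp90b1) and 0.33 (Canx), with a median of -0.04. None of them was called by limma or by the methods' t-test after adjustment, and 1 or 12.5% had an unadjusted p under 0.05 (Canx), against 14.5% of all genes. The 21 ER members without an exact match or without a promoter here had a median of -0.13, with quartiles of -0.26 and 0.04. Of these 14 were below 0, among them Pdia3, Dnajb12, Herpud1 and Xbp1. The other 7 were above 0, among them Sdf2l1 at 0.35 and Pdia4 at 0.22. An unadjusted p under 0.05 was found for 7 or 33.3% of the 21 (14.5% of all genes, 21.9% of those not dim). Called lower were 2 or 9.52% (1.66% of all genes, 2.73% of those not dim). A match is a description of the letters and not of binding.

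**Figure D3:**
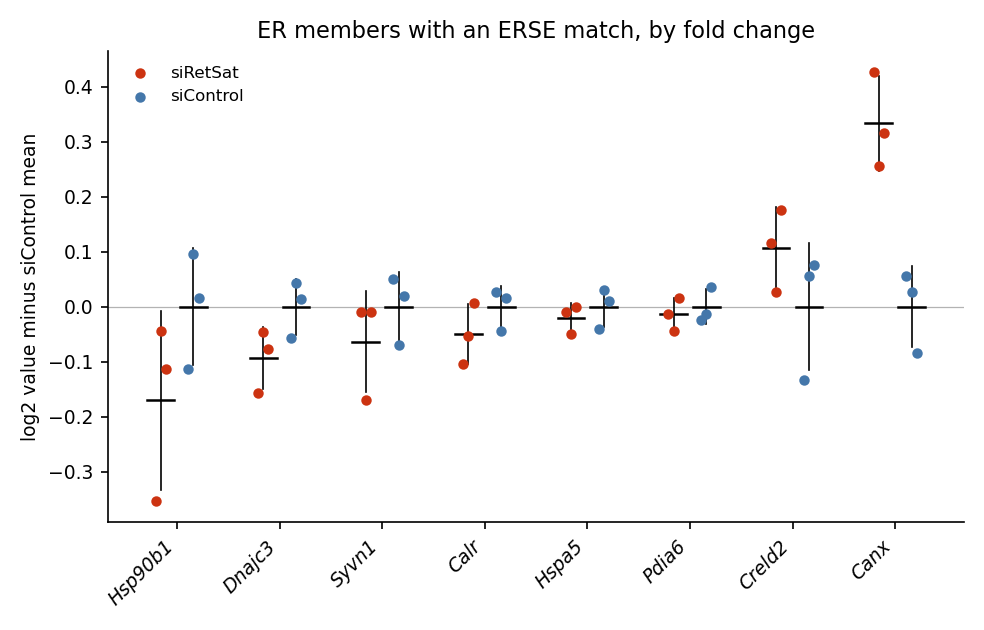
Dots are arrays, plotted as log2 difference from the siControl mean, for the 8 ER members whose promoter holds an ERSE match, ordered by fold change. Bars mark the mean of each group, with lines of 1 SD up and down (n = 3), and the siRetSat means run from -0.17 for Hsp90b1 to 0.33 for Canx.

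The promoter of Pdia3 held a run with 9 of the 10 fixed ERSE letters, 29 bases before its start site. With 1 changed letter allowed, 13 ER members and 1 cytosolic member held a match, against 1.5% of all promoter windows. The 5 ER genes added in this way were Herpud1, Pdia2, Pdia3, Pdia4 and Sel1l. For Herpud1, Pdia3 and Pdia4 these runs are shown along the strand that reads CCAAT first, with the fixed letters that match in capitals.
Pdia3, chr2:121413873-121413891: CCAATcggcggctgCCACa
Pdia4, chr6:47813602-47813620: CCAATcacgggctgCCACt
Herpud1, chr8:94386411-94386429: CCAATggatggcagCCACa
Pdia3 and Pdia4 hold runs that differ from the element only in the last letter, and their fold changes were -1.08 and 0.22. Herpud1 also held the second form of the element, ERSE-II (ATTGGNCCACG), at 52 bases before its start site. This form was found in 0.0365% of all promoter windows and in 1 more member, Dnajb11, where it begins 7 bases after the start site.
Herpud1, chr8:94386377-94386387, plus strand: ATTGGgCCACG
Dnajb11, chr16:22857852-22857862, plus strand: ATTGGcCCACG
The fold changes of Herpud1 and Dnajb11 were -0.46 and 0.05. The core of the element that spliced Xbp1 binds, TGACGTGG, was found in 0.676% of all promoter windows and, among the members, only in the window of Dnajc25, whose fold change was 0.04.

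The 200 bases before the start site are given for Hspa5, whose RNA stayed near control, and for Pdia3 and Dnajb12, which fell. All lie on the plus strand of GRCm38.p6, and capitals mark an exact ERSE match, of which Pdia3 and Dnajb12 have none in this window.
Hspa5, chr2:34771890-34772089: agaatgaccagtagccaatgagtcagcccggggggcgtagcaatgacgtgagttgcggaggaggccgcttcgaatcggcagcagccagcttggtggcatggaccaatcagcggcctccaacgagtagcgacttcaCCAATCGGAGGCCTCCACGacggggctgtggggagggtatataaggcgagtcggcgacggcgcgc
Pdia3, chr2:121413702-121413901: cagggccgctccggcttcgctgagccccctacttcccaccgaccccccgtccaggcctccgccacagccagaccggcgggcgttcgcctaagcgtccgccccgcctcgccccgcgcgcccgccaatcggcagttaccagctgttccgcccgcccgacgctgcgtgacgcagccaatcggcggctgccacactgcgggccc
Dnajb12, chr10:59879383-59879582: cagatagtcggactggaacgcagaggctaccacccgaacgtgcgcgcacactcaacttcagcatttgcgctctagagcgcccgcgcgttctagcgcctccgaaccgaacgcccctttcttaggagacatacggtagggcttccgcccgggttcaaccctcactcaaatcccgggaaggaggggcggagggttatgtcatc

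In the cytosol Hspa8 and Hsp90aa1 stayed near control, and the constitutive Hsp90ab1 was not analysed here. Hspa8, the constitutive Hsp70, was at 12.31, 12.48 and 12.52 in siRetSat hepatocytes, against 12.41, 12.52 and 12.59 in siControl hepatocytes. The groups overlapped, the fold change was -0.07 (95% interval -0.29 to 0.15), and its 3 probe sets gave values between -0.07 and -0.05. Hsp90aa1, the inducible Hsp90, was at 12.20, 12.25 and 12.26 in siRetSat hepatocytes, against 12.00, 12.18 and 12.18 in siControl hepatocytes. These values did not overlap, at a fold change of 0.12 (adjusted p = 0.694 from limma), but those of its other 2 probe sets did, at 0.09 and 0.11. Among genes that heat shock is known to induce, Hspa1a, Hsph1, Dnajb1 and Dnaja1 had fold changes of 0.01, 0.03, 0.11 and 0.00, each with overlapping groups. Other heat shock proteins, given below, lay further from control, with Cryab at 0.59, Hspb1 at 0.31, Hspd1 at -0.24 and Hspb6 at -0.49. The interval was -0.31 to 0.33 for Hspa1a and -0.16 to 0.23 for Hsph1.

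The cytosolic members with the smallest p were mostly lower. Dnajc12, a co-chaperone of the aromatic amino acid hydroxylases, was at 7.42, 7.45 and 7.47 in siRetSat hepatocytes, against 7.85, 7.79 and 7.77 in siControl hepatocytes. Its groups were tight and apart, and differed by -0.36 (adjusted p = 0.0544 from limma, standard error 0.0803). Dnajc12 passed with a variance trend, with array weights and with the replicate number as a block. It also passed with dim genes left out, with background subtraction and by the methods' t-test. Hspb6, a small heat shock protein abundant in muscle, was at 7.32, 7.36 and 7.25 in siRetSat hepatocytes, against 7.70, 8.07 and 7.63 in siControl hepatocytes. Its change of -0.49 did not pass (adjusted p = 0.0862 from limma, standard error 0.125), and siControl 2 was the highest array. Hspb6 passed with a variance trend, with array weights and with the replicate number as a block. Dnajb4, a J-domain partner of Hsp70, differed by -0.31 (limma's adjusted p = 0.127) and Hspa4, an exchange factor of Hsp70, by -0.26 (limma's adjusted p = 0.183), both without overlap, and both passed with a variance trend and with array weights. In the other direction Hspb1 (Hsp25), a small heat shock protein that binds actin and unfolded proteins, was at 10.52, 10.44 and 10.23 in siRetSat hepatocytes, against 10.23, 9.98 and 10.04 in siControl hepatocytes. Here siRetSat 3 equalled siControl 1, and the difference was 0.31 (standard error 0.112, adjusted p = 0.228 from limma). The second probe set of Hspb1 differed by 0.31 too, without overlap (10.40, 10.35 and 10.15 against 10.13, 9.88 and 9.95). Hspa1l, an Hsp70 of testis, was dim, at a mean of 4.25, and had a fold change of 0.22 (adjusted p = 0.390 from limma).

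**Figure D4:**
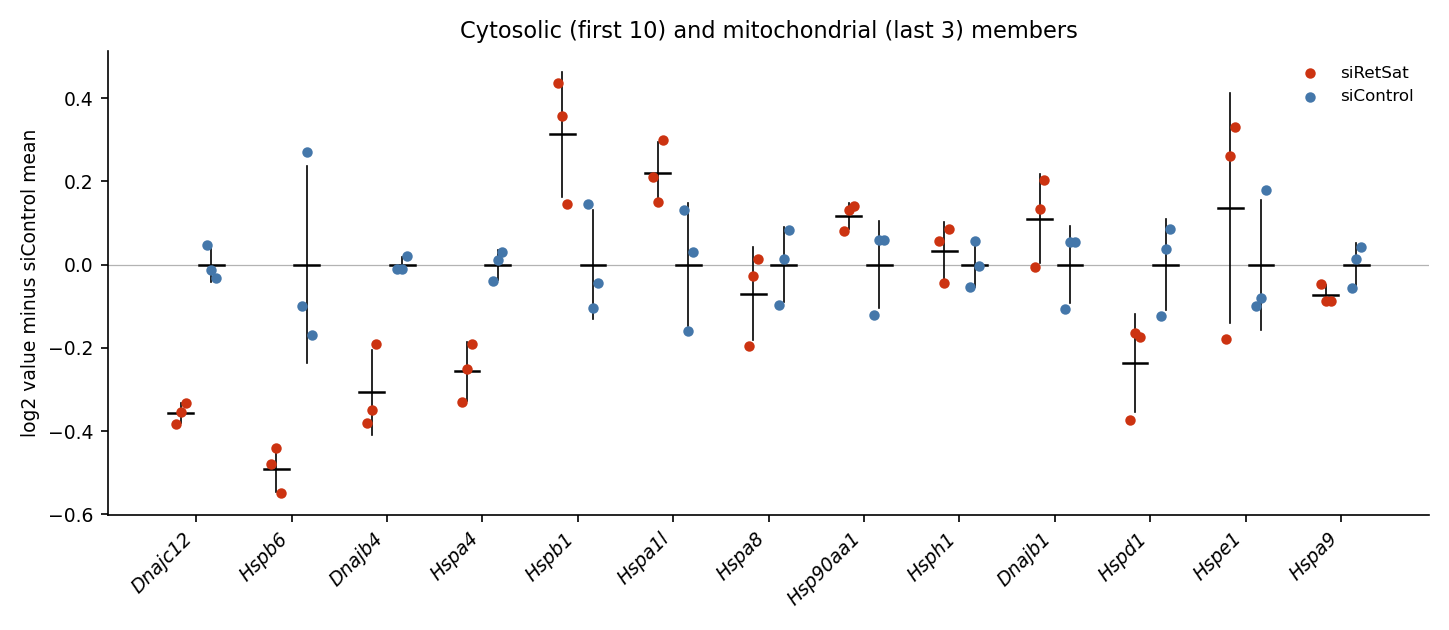
Every dot stands for 1 array and its log2 distance from the siControl mean of that gene, for 10 cytosolic members (left) and 3 mitochondrial members (right). Bars mark the mean of each group, with lines of 1 SD up and down (n = 3), with Hspb6 lowest at -0.49 and Hspb1 highest at 0.31.

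None of the 8 mitochondrial members was called by limma, by the methods' t-test or in any other alternative run. At an unadjusted p under 0.05 were 2 or 25%, against 14.5% of all genes and 21.9% of those not dim. None of the 8 was dim. Hspd1 (Hsp60) and Hspe1 (Hsp10) together form the mitochondrial chaperonin and are transcribed away from each other from a shared promoter. Hspd1 was at 10.79, 11.00 and 10.99 in siRetSat hepatocytes, against 11.04, 11.20 and 11.25 in siControl hepatocytes, with groups that lay close but apart (-0.24, adjusted p = 0.336 from limma). Those of its second probe set overlapped, at -0.19. Hspe1 was at 10.90, 11.34 and 11.41 in siRetSat hepatocytes, against 10.98, 11.00 and 11.26 in siControl hepatocytes, and its groups overlapped (0.14, 95% interval -0.21 to 0.48). The promoter is shown because it serves both genes and holds heat shock elements. The stretch below holds 2 overlapping matches to GAANNTTCNNGAA on opposite strands, in capitals, which were found in 0.603% of all promoter windows and among the members also in Dnajb6 and Hsph1.
Hspd1-Hspe1, chr1:55088053-55088082, plus strand: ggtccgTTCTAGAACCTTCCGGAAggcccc
Hspa9 (mortalin), the mitochondrial Hsp70 that pulls in imported proteins, had a fold change of -0.07 (95% interval -0.26 to 0.11). Dnajc11, a J-domain protein of the cristae junctions, had one of -0.25 without overlap (adjusted p = 0.247 from limma), and Dnajc19, a J-domain protein of the import motor, one of 0.23 (adjusted p = 0.485 from limma).

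The remaining members called were J-domain proteins placed outside these compartments. Dnajc9, a nuclear co-chaperone of histones H3 and H4, was at 6.90, 6.96 and 6.92 in siRetSat hepatocytes, against 6.41, 6.44 and 6.57 in siControl hepatocytes. It rose by 0.45 (standard error 0.0860, adjusted p = 0.0289 from limma), yet among the 6 fits without an array the call held in 1, the one without siRetSat 1. Without siControl 2, for example, its adjusted p was 0.148 from limma at a fold change of 0.44. Dnajc13 (RME-8), which sorts cargo at endosomes, was at 8.96, 8.87 and 8.90 in siRetSat hepatocytes, against 9.31, 9.52 and 9.35 in siControl hepatocytes. It fell by 0.48 on the log2 scale (standard error 0.0919, adjusted p = 0.0291 from limma) and passed without siRetSat 1 or without siControl 1, but not without any of the other arrays (adjusted p from 0.0887 to 0.144 from limma). The array carries 15 probe sets for Dnajc13, and their fold changes ran from -0.81 to -0.48, without overlap in 9 of them. The mean of these probe sets had a fold change of -0.60, which did not pass (adjusted p = 0.169 from limma).

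Some members varied with the array number. The array numbered 1 was the lowest of its group on both sides for 41.4% of ER members, against 22.2% of cytosolic members and 20.7% of all genes. For Dnajc1, an ER membrane partner of BiP, these arrays were at 6.72 and 6.68 (siRetSat 1 and siControl 1), whereas the other 4 arrays lay between 7.09 and 7.14. The median SD within groups was 0.098 for ER members, 0.132 for cytosolic members and 0.139 for all genes.

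Other genes of the same pathways were read from hand-written lists. Of all genes 1.66% were called lower and 1.91% higher, and each list holds few genes. Of 14 measured sensors and regulators of the unfolded protein response 1 fell and none rose, with a median of -0.10. Among these 14, none of them dim, 7 had an unadjusted p under 0.05 (14.5% of all genes, 21.9% of those not dim). Without overlap 5 were lower (10.1% of all genes, 15.6% of those not dim) and 1 higher (9.33% and 12.6%). The gene called lower was Eif2ak3, the sensor that phosphorylates eIF2alpha. It was at 8.09, 8.01 and 8.14 in siRetSat hepatocytes, against 8.43, 8.66 and 8.68 in siControl hepatocytes (-0.51, standard error 0.0996, adjusted p = 0.0319 from limma), and it passed only without siControl 1 among the fits that leave out an array. The fold change was 0.21 for Ern1 (limma's adjusted p = 0.336), -0.06 for Atf6, -0.28 for Atf4 (limma's adjusted p = 0.199) and 0.09 for Ddit3, the factor also known as CHOP. Of 33 other genes of ER folding and degradation 1 rose and 2 fell, with a median of -0.04. Tmx1, a thioredoxin-related oxidoreductase of the ER membrane, was at 9.54, 9.57 and 9.67 in siRetSat hepatocytes, against 8.58, 8.59 and 8.59 in siControl hepatocytes. Every siRetSat value lay far above every siControl value, and Tmx1 rose by 1.01 (standard error 0.0826, adjusted p = 0.00100 from limma) and passed without each array in turn. Sil1, an exchange factor of BiP, was at 7.99, 7.84 and 7.95 in siRetSat hepatocytes, against 8.49, 8.48 and 8.39 in siControl hepatocytes. It fell (-0.53, standard error 0.0869, adjusted p = 0.0173 from limma) and its call held in 2 of the 6 fits without an array, those without siRetSat 1 or siControl 1. Sec62, a part of the ER import channel, fell too (-0.45, adjusted p = 0.0385 from limma) but its call held in none of these 6 fits.

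Among 26 measured heat shock factors and mostly cytosolic co-chaperones 1 rose and none fell, with a median of -0.09. Of all genes 1.91% were called higher and 1.66% lower. Serpinh1 in this list, at -0.24, is a chaperone of the ER. The riser was Cryab, a small heat shock protein that was at 6.81, 7.11 and 6.85 in siRetSat hepatocytes, against 6.39, 6.30 and 6.30 in siControl hepatocytes (0.59, standard error 0.104, adjusted p = 0.0213 from limma). Its call held in 2 of these 6 fits, those without siRetSat 1 or siControl 1. Hsf1 was not analysed here, and Hsf2 had a fold change of -0.29 (adjusted p = 0.365 from limma). Of 23 chaperonin, prefoldin and mitochondrial co-chaperone genes 1 fell and none rose, with a median of -0.01. It was Grpel2, a nucleotide exchange factor of Hspa9, at 7.66, 7.5 and 7.8 in siRetSat hepatocytes, against 8.23, 8.17 and 8.24 in siControl hepatocytes (-0.56, standard error 0.0999, adjusted p = 0.0229 from limma). The call held in 2 of the same 6 fits, those without siRetSat 1 or siRetSat 3.

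**Figure D5:**
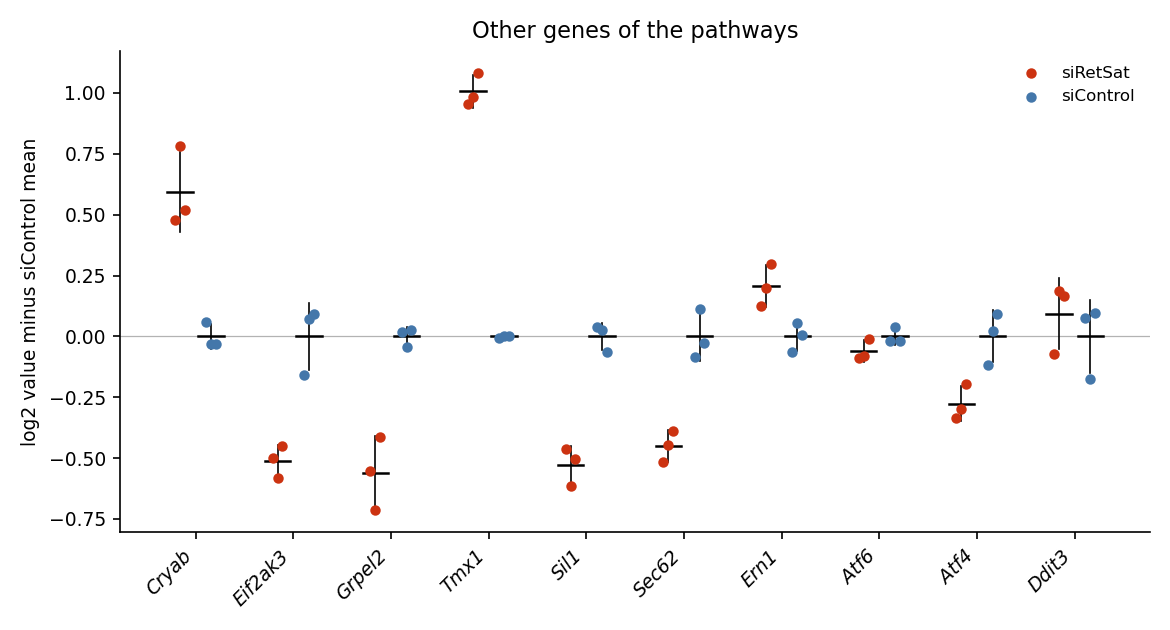
Dots give the 6 arrays as log2 differences from the siControl mean of that gene, for the 6 genes of the hand-written lists that passed an adjusted p of 0.05 and for Ern1, Atf6, Atf4 and Ddit3. Bars mark the mean of each group, with lines of 1 SD up and down (n = 3), with Tmx1 highest at 1.01 and Grpel2 lowest at -0.56.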

How the data were processed

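RNA of 3 siRetSat and 3 siControl transfections (100 ng each) was hybridised to Affymetrix Mouse Gene 1.0 ST arrays. The values deposited by the authors are on the log2 scale, for 35556 probe sets. RMA and Partek 6.6 are named in the processing notes of the submitters. The filters and annotation release behind them were not given in those sources. GEO's platform annotation gave 1 symbol for 21789 probe sets, several for 1621 and none for 12146. Symbols were updated by Entrez identifier (21698 matched), and for each of 19938 genes the probe set with the highest mean was kept.

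limma 3.58.1 (R 4.3.3, lmFit and eBayes, no covariates) compared siRetSat with siControl, with p-values adjusted across all genes (Benjamini-Hochberg) and called under 0.05. On simulated data, with genes drawn independently, it recovered 0.7% of 1.25-fold, 38.8% of 1.5-fold and 76.7% of 2-fold changes. Genes that did not pass may therefore still have changed. Dim means under 4.33, the 40th percentile of gene means. The number of arrays limits the precision. Members, classes and pathway lists were chosen with earlier results of these data known. The genes given in full were Hspa5, Dnajb9, Hspa8, every member called, those with the smallest p of each class and the brightest 5, together with genes of the lists that were called. Others were named after their values were seen. Promoters are RefSeq's, build GRCm38.p6. Python 3.11.15, pandas 2.3.3 and matplotlib 3.10.9 were used.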

Additional observations from a re-analysis of the deposited data

How the results depend on the processing

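Counts of calls depended on the processing. With 710 genes, 4 members, 2 ER members and no cytosolic member called as reported, the replicate number as a block gave 1541, 11, 6 and 2 (with Canx, Sdf2l1, Herpud1, Xbp1, Hspb6, Dnajc12 and Dnajc8 added), a variance trend 1078, 11, 5 and 4, and array weights 2905, 18, 9 and 5. With dim genes left out, 7 members, 4 ER members and 1 cytosolic member were called. Each array centred on its median gave 342 genes and 2 members, background subtraction (5th percentile, floor 16) 445 genes and 1 cytosolic member, and all probe sets 271 genes, 1 member and 1 ER member. The methods' t-test gave 196 genes, 2 members, 1 ER member (Xbp1) and 1 cytosolic member (Dnajc12) after adjustment. Leaving out an array in turn gave 207 to 646 genes, 0 to 5 members and 0 to 3 ER members. Without both arrays numbered 2, which was chosen after seeing the data, 15 genes and no member were called (0 in the ER class), and without both numbered 3, 111 genes and none. The cytosolic median stayed within 0.04 of 0. It was 0.00 with dim genes left out, with centring (0.0017) and with background subtraction, 0.01 with repeated quantile normalization (0.0110) and array weights (0.0116), 0.03 with the mean of probe sets (0.0317), 0.0325 without both arrays numbered 2, 0.0075 without both numbered 3, and 0.0083 to 0.0358 without an array. Without an array the ER median ran from -0.12 to -0.04 and the ER minus cytosolic median from -0.15 to -0.05, both lowest without siControl 1. The cause of these shifts was not tested. Deviations from the group means of same-numbered arrays correlated at 0.547, 0.0398 and 0.541. On the component with 61.5% of the variance within groups, same-numbered arrays had similar scores. In siRetSat and siControl these were -23.6 and -19.0 for number 1, 7.26 and 3.66 for number 2, and 16.4 and 15.4 for number 3. The reported fit ignores this shared variation, and the replicate number as a block gave more calls. The restriction of the ER class to proteins ending in a KDEL-like signal was not run, since no protein sequences were used here. Over all alternatives run, the call was lost in 4 for Dnajb12, 8 for Pdia3, 11 for Dnajc9 and 11 for Dnajc13, and none of these 4 genes changed its direction.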
